A study of Mus musculus with 12 samples.

Results

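The comparison described here set MIN6 cells kept without serum at 5% oxygen (Defined Conditions, DC) against MIN6 cells kept with serum at 20% oxygen (Classic Conditions, CC), all of them transfected with siRNA against Hes3. Its members were the arrays whose titles carried the Hes3 label, 4 in DC (numbered 1, 2, 5 and 7) and 2 in CC (numbered 1 and 2), so 6 of the 12 arrays of the series. The other 6 arrays came from cells with a scrambled siRNA, 4 in DC and 2 in CC. They are used below as the same culture comparison under the control label. They also entered the normalization and the estimate of spread behind the limma p-values of the Hes3 label. MIN6 is a mouse insulinoma line that makes and secretes insulin, and Hes3 is a Hes/Hey family gene whose protein represses transcription. Cells had been maintained with 15% fetal calf serum, were plated at 50000 per well, received 2 uM siRNA 24 h after plating and were assayed 12 to 24 h after transfection. Serum and oxygen changed together, so their parts in any difference cannot be told apart. The samples came from a single experiment on 1 cell line, the labels do not state what share of cells took up siRNA, and p-values here rest on the scatter of these few samples alone, part or all of which may be technical.

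Serum brings cells growth factors, iron carriers and cholesterol in lipoproteins, and cells without it have to make their own lipid. When sterol in the endoplasmic reticulum (ER) falls, the transcription factors SREBP-1 and SREBP-2 are cut from the membrane, enter the nucleus and switch on the genes of cholesterol and fatty acid synthesis. Low oxygen stabilises hypoxia-inducible factors, which raise genes of glycolysis, and the beta cell, which folds large amounts of proinsulin in the ER, depends on the unfolded protein response.

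Hes3 itself did not separate the labels. Its log2 signal was 7.26 and 7.31 in the CC arrays labelled Hes3 siRNA and 7.25, 7.31, 7.27 and 7.18 in the DC arrays. In the scrambled arrays it was 7.24 and 6.94 in CC and 7.14, 7.22, 7.23 and 7.25 in DC. No array labelled Hes3 siRNA lay below the range of the scrambled arrays, so the groups are called by their labels. All these values lay below the deposited array medians, which ran from 7.78 to 7.96 over the series. A dim signal can hide a decrease, so these arrays cannot settle whether Hes3 RNA was lowered. The culture difference of Hes3 was -0.03 ± 0.0791 (log2 fold change, DC minus CC, ± SE; limma adjusted p = 0.814), and its sign turned with arrays centred on their median (0.0043) and in the deposited values (0.11).

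Ins2, one of the mouse insulin genes and the defining product of the beta cell, read 12.83 and 12.84 in CC and 12.92, 12.87, 12.89 and 12.87 in DC, with little spread between arrays. Its culture difference did not pass (log2 fold change 0.05, limma adjusted p = 0.556), and it turned to -0.15 with arrays centred on their median. Markers of other pancreatic and stromal cells were summed as a mean log2 signal per array. It ran from 7.46 to 7.62 in DC and from 7.46 to 7.5 in CC for 11 acinar markers, from 7.53 to 7.66 and from 7.53 to 7.54 for 7 duct markers, and from 7.64 to 7.87 and from 7.62 to 7.67 for 15 fibroblast and matrix markers. For 13 macrophage and endothelial markers it ran from 7.01 to 7.12 in DC and from 7.05 to 7.10 in CC. DC arrays 1 and 5 were the highest of the 6 arrays in all 4 of these lists, and an array has no true 0, so these values do not show that such cells were absent. Their part in the results was not tested. In bulk RNA, fewer cells of a type and less RNA per cell cannot be told apart. The deposited array medians were 7.91 to 7.96 in DC and 7.81 to 7.84 in CC. The SD of the deposited signals was 1.76 to 1.8 in DC and 1.86 to 1.88 in CC. Both measures had a two-sided exact permutation p of 0.0667, the smallest that 4 against 2 arrays allow. Correlations across genes were 0.989 to 0.996 within DC, 0.998 within CC and 0.978 to 0.989 between them. The number of arrays limits the precision.

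Of 19938 genes, 5025 differed between the cultures in the arrays labelled Hes3 siRNA at a limma adjusted p under 0.05, a share of 25.2%. The 2045 genes that rose made up 10.3% of all genes and the 2980 that fell 14.9%. The 6 arrays of the cultures did not overlap for 43.5% of all genes. The median log2 fold change over all genes was 0.03, and the median size among called genes was 0.37. At 1.5-fold or more, 882 genes remained (4.42%), 139 higher (0.697%) and 743 lower (3.73%). After quantile normalization, larger differences were therefore mostly decreases. The split at 1.5-fold was not counted under the other scalings. Among all called genes the split depended on the scaling. Those higher made up 40.7% after quantile normalization, 53% in the deposited values, 17.3% with arrays centred on their median and 36.5% after cyclic loess. The deposited values called 40.1% of all genes (21.2% higher, 18.8% lower), centring on the median 30% (5.19% and 24.8%) and cyclic loess 25.7% (9.39% and 16.3%). Genes also called after quantile normalization numbered 4212, 3801 and 4760, and 0 of them had opposite signs. The 2 CC arrays carried much of the count, which was 2595 without CC array 1 (13%, with 3.83% higher and 9.18% lower) and 1934 without CC array 2 (9.7%, with 2.77% and 6.93%). Without DC arrays 1 and 5 together 17.1% of all genes were called (5.41% higher, 11.7% lower). With the fit limited to the 6 arrays compared, 3756 genes were called, 1306 higher and 2450 lower. Of the 19938 genes, 1647 were higher and 2840 lower without DC array 1 alone. The counts were 1445 and 2560 without DC array 5, and 2976 and 3222 without DC array 7. List counts below are to be read against these shares and counts.

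**Figure D1:**
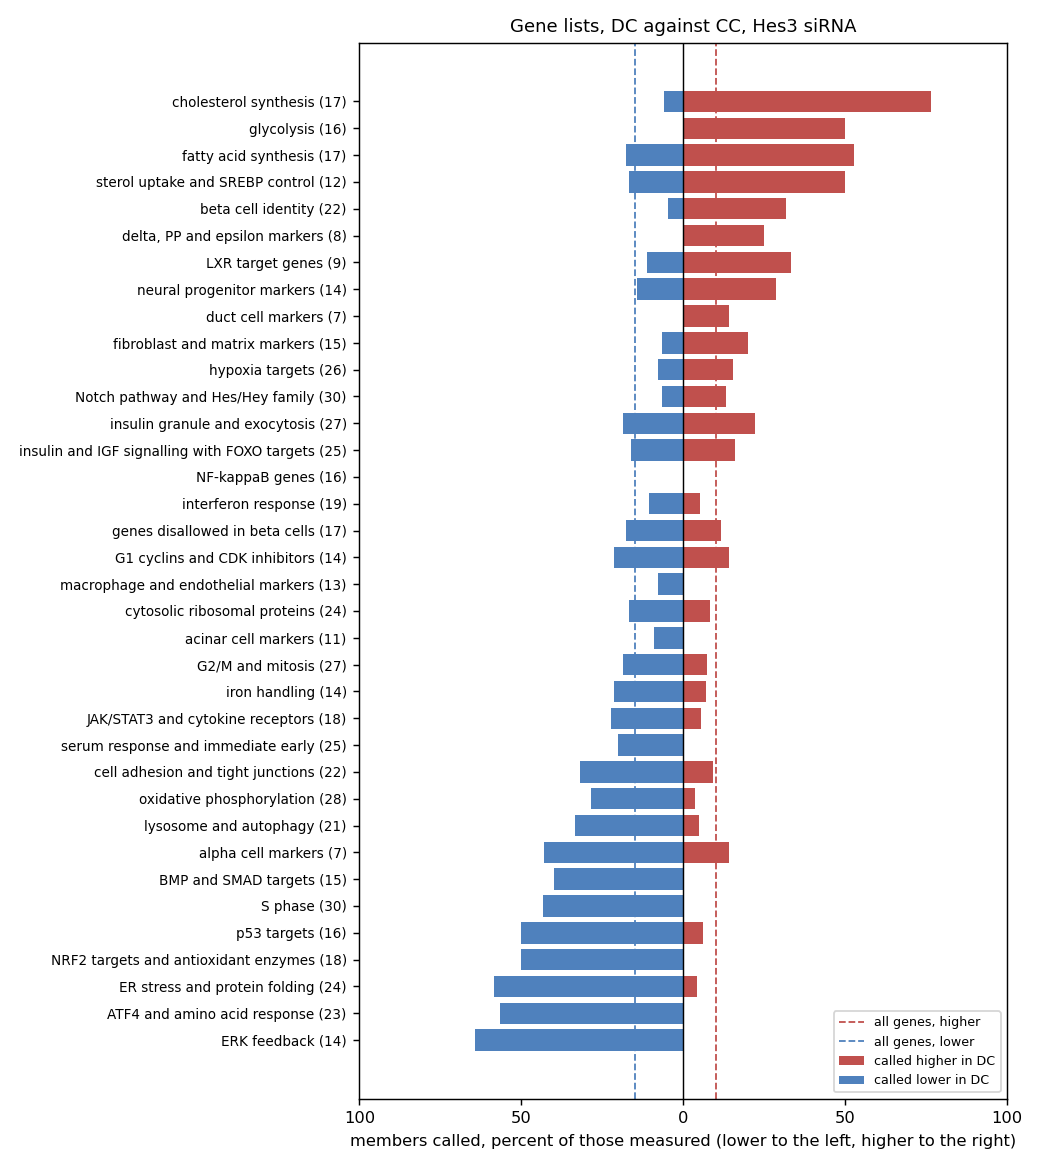
Bars give, for each gene list, the percent of measured members (number in brackets) called higher in DC, to the right, or lower, to the left, at a limma adjusted p under 0.05, in the 4 DC against the 2 CC arrays labelled Hes3 siRNA. Dashed lines mark the shares over all 19938 genes, 10.3% higher and 14.9% lower; cholesterol synthesis (13 of 17 higher) and ERK feedback (9 of 14 lower) stand at the ends.

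Most genes of cholesterol synthesis rose. Of 17 measured enzymes 13 were higher in DC and 1 was lower, with a median log2 fold change of 0.58 against 0.03 over all genes. The largest called increase was that of Hmgcs1, the cytosolic HMG-CoA synthase that opens the mevalonate pathway. Its log2 signal was 8.54 and 8.84 in CC and 10.69, 10.57, 10.06 and 10.38 in DC. Every DC array lay above both CC arrays by more than the gap between the CC arrays, and the difference was 1.74 ± 0.141 (log2 fold change ± SE, 3.34-fold; limma adjusted p = 1.38e-06). Hmgcs1 was also the 1 member of 14 with a RefSeq promoter (GRCm38.p6) whose 250 bases upstream of the start held the sterol regulatory element TCACNCCAC on either strand, which 1.05% of all 32851 promoters of that length held. The stretch around it is shown because it joins the best known SREBP target motif to the gene with the largest called increase, with the element in capitals, on chr13:119690184-119690252, plus strand.

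Hmgcs1: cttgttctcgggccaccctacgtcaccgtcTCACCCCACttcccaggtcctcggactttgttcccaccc

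The shorter CCAAT box, where the SREBP partner NF-Y binds, was found in the windows of all 14 of these promoters (33.8% of all promoters), 11 of them of called genes. A match is a description of letters, not of binding. Here and below, list counts of promoters are counts of genes, and a gene counted if any promoter under its symbol held the motif. The share over all promoters counts each promoter once, so it is not quite the same measure.

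Further along the pathway, the early kinases and decarboxylase Mvk, Pmvk and Mvd were higher by log2 fold changes of 0.45, 0.46 and 0.78. Fdps, farnesyl diphosphate synthase, read 9.65 and 9.77 in CC and 10.87, 10.71, 10.67 and 10.64 in DC, with no overlap (1.01 ± 0.0754, limma adjusted p = 5.68e-07). Fdft1, squalene synthase, rose by 0.68. Lss, lanosterol synthase, read 9.22 and 9.36 in CC and 10.58, 10.64, 10.48 and 10.63 in DC (1.29 ± 0.0820, limma adjusted p = 2.02e-07), so its DC arrays lay within a narrow band far above CC. Of the later enzymes, Tm7sf2 (0.92), Dhcr7 (0.89) and Nsdhl (0.83) rose. Sqle, squalene epoxidase (0.40, limma adjusted p = 0.00409), Msmo1 (0.45, 0.00639) and Hsd17b7 (0.58, 0.01) were called as well, but without CC array 2 their limma adjusted p was 0.0681, 0.117 and 0.0915, and Hsd17b7 had 0.0639 without CC array 1.

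Not every step moved with the rest. Ebp, the sterol isomerase, read 10.99 and 10.76 in CC and 10.33, 10.46, 10.14 and 10.41 in DC and was the 1 member that fell (-0.54 ± 0.0904, limma adjusted p = 0.000557). Idi1 (0.41 ± 0.185, limma adjusted p = 0.119), Cyp51 (0.20, 0.16) and Sc5d (0.14, 0.146) did not pass. For Idi1 the DC arrays spread widely, from 9.09 in array 5 to 9.67 in array 2, against 9.01 and 8.98 in CC. In the scrambled arrays the same list had 16 of 17 members higher and 0 lower, with a median of 0.83, where 3.43% of all genes were higher and 5.31% lower, and Idi1 differed by 1.51 there. The difference between the labels was not called for any gene, as described at the end.

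Genes that govern SREBP were called in both directions. Of 12 measured members of the list of sterol uptake and SREBP control, 6 were higher and 2 lower (median 0.25). Srebf2, which encodes SREBP-2, read 10.34 and 10.33 in CC and 11.28, 11.21, 11.12 and 11.19 in DC (0.86 ± 0.0831, limma adjusted p = 5.54e-06). Srebf1 read 10.13 and 10.03 in CC and 11.17, 11.10, 11.03 and 10.97 in DC (0.99 ± 0.0926, limma adjusted p = 4.3e-06). For both genes the arrays of each culture lay close together and the cultures far apart. The pair of Insig genes, whose proteins hold SREBP in the ER when sterol is plentiful, went opposite ways. Insig1, itself an SREBP target, was 11.03 and 10.91 in CC and 11.99, 12.03, 12.04 and 12.16 in DC (1.08 ± 0.0696, limma adjusted p = 2.02e-07). Insig2 was 10.79 and 10.77 in CC and 10.02, 10.07, 10.24 and 10.03 in DC (-0.69 ± 0.0880, limma adjusted p = 5.88e-05). Neither gene had overlapping arrays. Lpin1, a phosphatidate phosphatase and SREBP coregulator (0.96), and Stard4, a sterol carrier (0.58), also rose. Tmem97, a lysosomal and ER sterol protein, fell (-0.42, limma adjusted p = 0.0112), a call lost without CC array 1 (0.094) or 2 (0.0733).

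**Figure D2:**
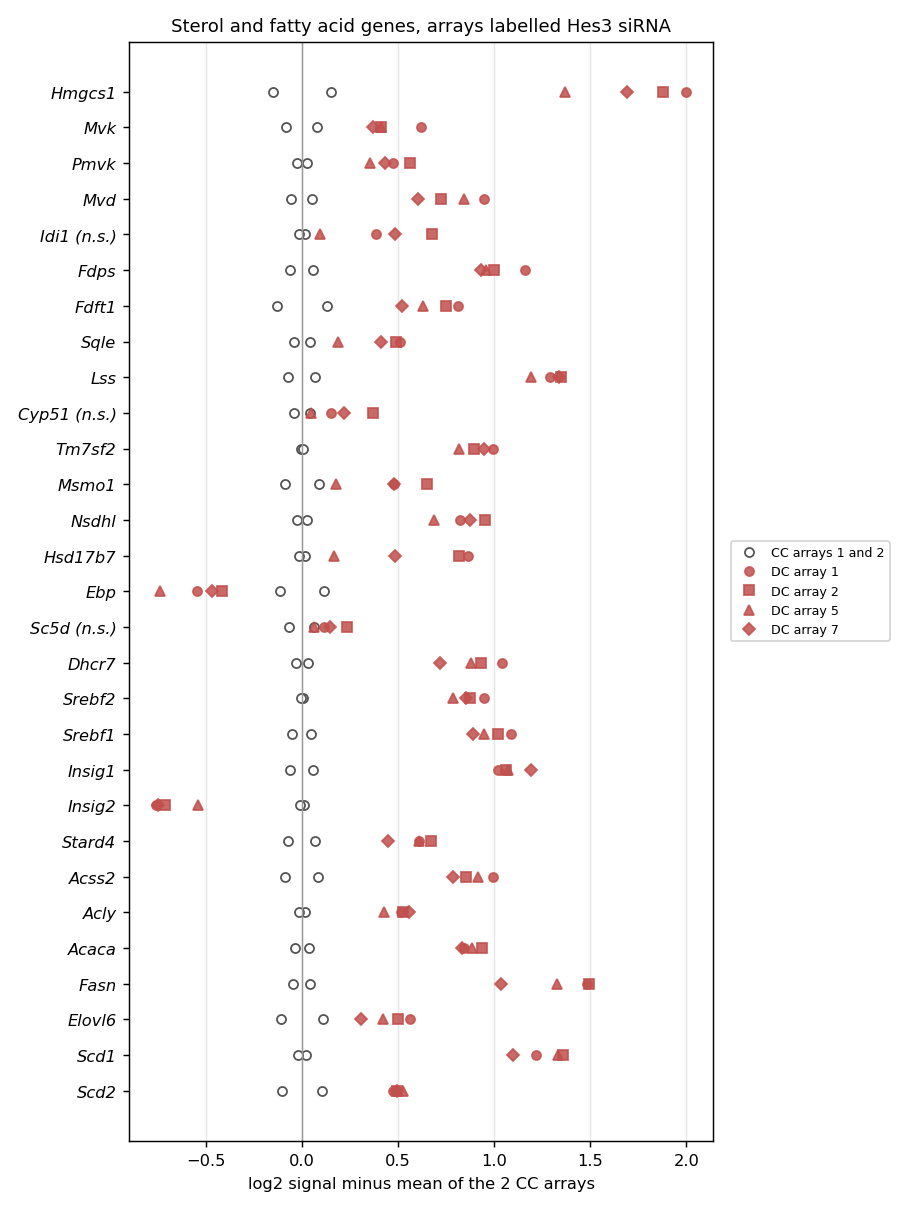
Each symbol is 1 array labelled Hes3 siRNA, placed at its log2 signal minus the mean of the 2 CC arrays, for sterol enzymes in pathway order, SREBP and Insig genes, and fatty acid genes; open circles are CC, filled symbols DC, and n.s. marks genes not past a limma adjusted p of 0.05. Most DC symbols lie to the right of both CC symbols, up to 1.74 on average for Hmgcs1, while Ebp and Insig2 lie to the left.

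Fatty acid synthesis followed the same direction in its early steps. Of 17 measured genes 9 were higher and 3 lower, with a median of 0.26. Fasn, fatty acid synthase, read 10.82 and 10.91 in CC and 12.35, 12.36, 12.19 and 11.90 in DC (1.34 ± 0.115, 2.53-fold; limma adjusted p = 2.44e-06). Scd1, which desaturates stearate, read 10.24 and 10.20 in CC and 11.44, 11.58, 11.55 and 11.32 in DC (1.25 ± 0.0992, limma adjusted p = 1.07e-06). Both genes were higher in all 4 DC arrays, with array 7 the lowest of them. The enzymes that supply the building blocks rose by less: Acss2, which makes acetyl-CoA from acetate, by 0.89, Acaca, acetyl-CoA carboxylase, by 0.88, Acly, ATP-citrate lyase, by 0.51, and the citrate carrier Slc25a1 by 0.43. Scd2 rose by 0.49. The elongase of polyunsaturated fatty acids Elovl5 was 11.78 and 11.56 in CC and 11.42, 11.33, 11.33 and 10.97 in DC and fell (-0.40 ± 0.106, limma adjusted p = 0.0113, but 0.179 without CC array 1). The other decreases, Elovl1 (-0.24) and Me1 (-0.23), were smaller, and without CC array 1 the list had 0 members lower and without CC array 2 it had 1. With arrays centred on their median the list had 6 members higher and 3 lower, and its median was 0.06.

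LXR is the sterol-sensing nuclear receptor that acts when cholesterol is plentiful. Of 9 measured members of a list of LXR genes and their targets, 3 were called higher and 1 lower. The decrease was in Smpdl3a, a nucleotide phosphodiesterase, at 9.91 and 9.70 in CC and 8.75, 8.85, 8.52 and 8.66 in DC (-1.11 ± 0.0900, limma adjusted p = 1.44e-06). The increases, Mylip (0.31), Lpcat3 (0.27) and Apoe (0.25), had limma adjusted p values of 0.0169, 0.0147 and 0.0457 and rose to 0.133, 0.232 and 0.26 without CC array 2. Without that array the list had 0 members higher and 1 lower, without CC array 1 it had 1 and 1, without DC arrays 1 and 5 together 1 and 1, and without DC array 7 it had 6 and 1. With arrays centred on their median it had 0 and 1. Lpcat3 turned to -0.04 with arrays centred on their median. The cholesterol exporter Abca1 split the DC arrays, at 9.10 and 9.13 in arrays 1 and 2 but 8.55 and 8.06 in arrays 5 and 7 against 8.11 and 8.16 in CC, and did not pass (0.58 ± 0.206, limma adjusted p = 0.0517).

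Glycolytic genes were called higher in part, by amounts that varied among the DC arrays. Of 16 measured members 8 rose and 0 fell, with a median of 0.32, and the other 8 did not pass. Ldha, lactate dehydrogenase A, a gene held low in normal beta cells, read 10.19 and 10.05 in CC and 11.53, 11.12, 11.87 and 10.68 in DC (1.18 ± 0.234, 2.27-fold; limma adjusted p = 0.00188). Arrays 1 and 5 were the highest and array 7 the lowest, though none reached down to CC. The lactate exporter Slc16a3 showed the same order, at 8.93 and 8.73 in CC and 9.93, 9.56, 10.05 and 9.22 in DC (0.86 ± 0.183, limma adjusted p = 0.00309). Pfkl, a phosphofructokinase, rose by 0.88 and Aldoc, an aldolase, by 0.85. Pkm (0.35, limma adjusted p = 0.00829) and Pgk1 (0.47, 0.0497) were called too, the latter just under the threshold. The median difference of the list from the CC mean was 0.53 in array 1, 0.27 in array 2, 0.56 in array 5 and 0.08 in array 7. Without arrays 1 and 5 the list had 4 members higher, without CC array 1 it had 4 and without CC array 2 it had 3. With arrays centred on their median 4 were higher and 1 lower. Slc16a3 had a limma adjusted p of 0.0611 without CC array 2. Without CC array 1 and without CC array 2 the limma adjusted p of Pgk1 was 0.22 and 0.178, and that of Pkm 0.0821 and 0.0593.

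The letters ACGTG, the core bound by hypoxia-inducible factors, were searched on both strands of the 250 bases upstream of each start. They occurred in 9 of 16 glycolysis promoters, 5 of them of called genes, and in 16.6% of all promoters. The windows of the 2 genes described above are shown with every match in capitals; where a match on each strand overlaps, the capitals read CACGTG. They come from RefSeq on GRCm38.p6, plus strand, at chr7:46845629-46845803 for Ldha and chr11:120949010-120949066 for Slc16a3.

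Ldha: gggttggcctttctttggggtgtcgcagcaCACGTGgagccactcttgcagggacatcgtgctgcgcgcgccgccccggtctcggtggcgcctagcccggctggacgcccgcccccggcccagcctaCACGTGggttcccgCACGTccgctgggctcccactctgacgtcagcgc

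Slc16a3: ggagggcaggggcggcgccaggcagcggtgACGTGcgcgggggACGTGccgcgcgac

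The wider set of hypoxia targets did not move one way. Of 26 members 4 were higher and 2 lower, near the shares over all genes, and the median was 0.00. Pdk1, the kinase that closes pyruvate dehydrogenase, read 7.73 and 7.70 in CC and 8.45, 8.31, 8.94 and 8.23 in DC (0.77 ± 0.149, limma adjusted p = 0.00161). Ndrg1 rose by 0.58. Vegfa, the angiogenic factor, rose by 0.41 (limma adjusted p = 0.00183, and 0.0611 without CC array 2), and Fam162a by 0.54 (0.0108, and 0.159 without CC array 1). Plod2, a collagen lysyl hydroxylase, read 10.62 and 10.35 in CC and 9.32, 9.67, 9.44 and 9.69 in DC and fell (-0.96 ± 0.109, limma adjusted p = 2.25e-05), and the ER oxidase Ero1a fell by 0.59. Both of these are counted among hypoxia targets, and both were lower in the cells at 5% oxygen. Bnip3, a mitophagy receptor, ranged from 9.38 in array 7 to 10.75 in array 5 against 9.33 and 9.50 in CC and did not pass (0.61 ± 0.287, limma adjusted p = 0.133). Without DC array 5 the list had 4 members higher and 6 lower. Of 21 promoters of this list 16 held ACGTG, 3 of them of called genes.

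Id genes encode inhibitors of basic helix-loop-helix transcription factors and serve as readouts of BMP and serum signals. Id1, Id2 and Id3 were called lower, Id4 was not called, and Id2 and Id1 were among the 15 largest decreases. Id2 read 10.86 and 11.13 in CC and 7.76, 8.32, 7.80 and 8.81 in DC (-2.82 ± 0.213, 7.06-fold lower; limma adjusted p = 6.18e-07). Id1 read 9.46 and 9.64 in CC and 7.86, 7.67, 7.66 and 7.65 in DC (-1.84 ± 0.0882, 3.58-fold lower; limma adjusted p = 1.87e-08). Id3 read 8.10 and 8.31 in CC and 7.23, 6.90, 7.01 and 6.95 in DC (-1.18 ± 0.119, limma adjusted p = 7.64e-06). In all 3 genes every DC array lay well below both CC arrays, and for Id2 the DC arrays themselves spanned over 1 log2 unit. Of 15 BMP and SMAD targets 6 fell and 0 rose, while the median of the list was -0.02. The others that fell were Skil, a repressor of SMAD signalling (-0.67), Smad9 (-0.34, limma adjusted p = 0.00665, but 0.145 without CC array 2) and Smad7, an inhibitory SMAD (-0.23, 0.0365, but 0.118 and 0.22 without CC array 1 and 2).

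Most genes of the ERK feedback list were called lower. ERK kinases switch such genes on, and some of their products, such as Dusp6, damp ERK in turn. Of 14 measured members 9 were lower and 0 higher, with a median of -0.35. Dusp6, the cytosolic phosphatase of ERK, read 10.18 and 10.56 in CC and 8.47, 8.44, 7.99 and 8.52 in DC (-2.02 ± 0.140, 4.04-fold lower; limma adjusted p = 2.57e-07). The ETS factor Etv5 read 9.66 and 9.81 in CC and 9.02, 9.0, 8.90 and 8.99 in DC (-0.76 ± 0.0755, limma adjusted p = 7.4e-06). Neither overlapped between the cultures. Smaller decreases were called for the phosphatases Dusp5 (-0.46) and Dusp4 (-0.32), the RAS-ERK inhibitors Spred1 (-0.44), Spry4 (-0.41) and Spred2 (-0.31), the ETS factor Etv4 (-0.39) and Phlda1 (-0.38). These 7 calls were lost without CC array 2: without CC array 2 the list had 2 members lower, and their limma adjusted p then ran from 0.0505 for Spry4 to 0.362 for Spred2. Without CC array 1 it had 7.

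The list of serum response and immediate early genes had 5 of 25 members lower and 0 higher (median -0.07), close to the 14.9% lower over all genes. Jun was 9.84 and 9.66 in CC and 9.34, 9.04, 9.16 and 9.42 in DC (-0.51 ± 0.0963, limma adjusted p = 0.00145). Fos was 8.71 and 8.82 in CC and 8.61, 8.25, 8.02 and 8.22 in DC (-0.49 ± 0.113, limma adjusted p = 0.00521, and 0.0831 without CC array 2). Tpm1, a tropomyosin driven by serum response factor, fell by 0.66. Egr1, with DC values of 8.95, 8.66, 8.76 and 8.80 against 9.08 and 8.95, did not pass (-0.22, limma adjusted p = 0.0734). Without CC array 1 the list had 3 members lower, without CC array 2 it had 2 and without DC array 1 it had 8. The count was 8 in the deposited values and 9 with arrays centred on their median.

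**Figure D3:**
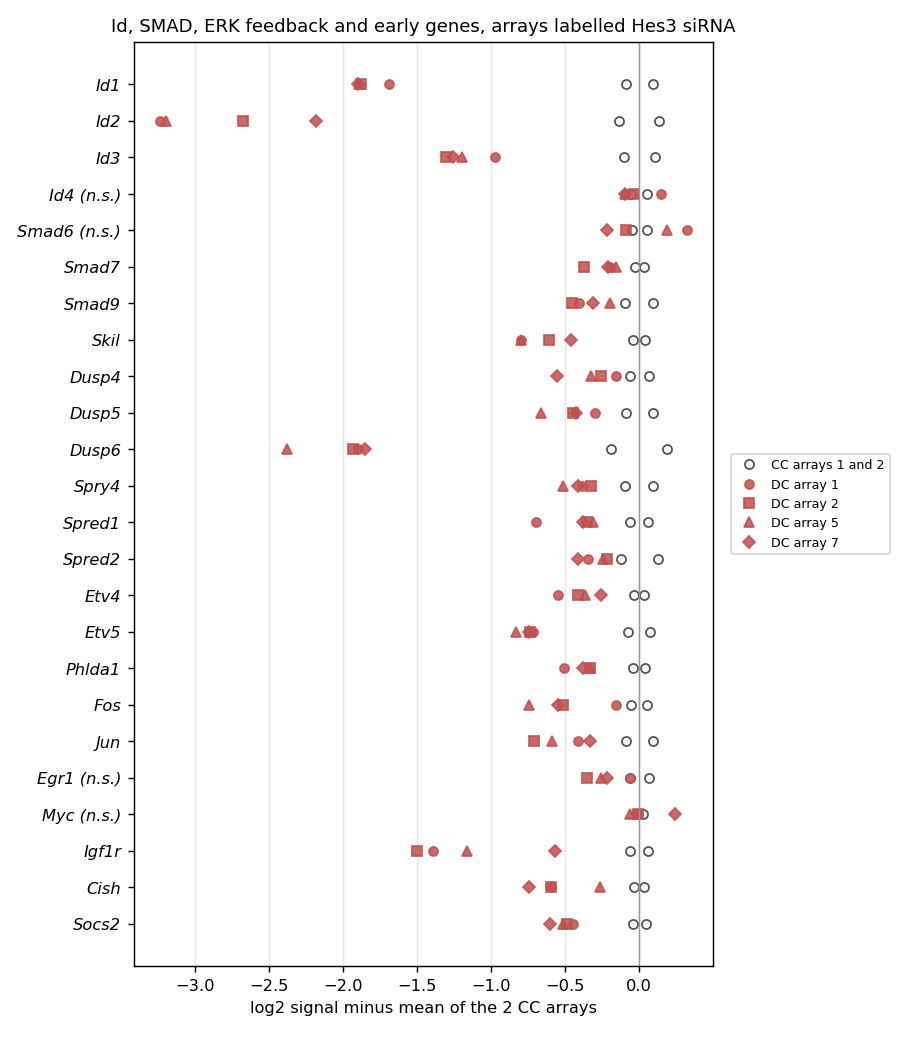
Each symbol is 1 array labelled Hes3 siRNA at its log2 signal minus the mean of the 2 CC arrays, for Id, SMAD, ERK feedback, early response and receptor-related genes; open circles are CC, filled symbols DC, and n.s. marks genes not past a limma adjusted p of 0.05. Id2, Dusp6 and Id1 lie farthest to the left (-2.82, -2.02 and -1.84 on average).

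Some receptors and feedback genes of growth factor and cytokine signals fell, but their lists did not fall as a whole. Lower were 16% of the insulin and IGF list (median 0.06) and 22.2% of the JAK/STAT3 list (median -0.07), against 14.9% of all genes. Higher were 16% and 5.56%, against 10.3% of all genes. Igf1r, the IGF-1 receptor, read 10.51 and 10.39 in CC and 9.06, 8.95, 9.29 and 9.88 in DC (-1.15 ± 0.175, 2.22-fold lower; limma adjusted p = 0.00025). Array 7 stood closer to CC than the other 3 DC arrays. The whole list of insulin and IGF signalling with FOXO targets had 4 of 25 members higher and 4 lower, with 1 and 3 without CC array 1, 0 and 1 without CC array 2 and 1 and 8 with arrays centred on their median. Insrr, the insulin receptor-related receptor, which was not in that list, read 8.72 and 8.68 in CC and 9.63, 9.73, 9.91 and 9.93 in DC and rose (1.10 ± 0.0986, limma adjusted p = 3e-06). Of 18 genes of JAK/STAT3 signalling and cytokine receptors 4 fell and 1 rose, namely Stat5a (0.33, limma adjusted p = 0.0138, and 0.14 without CC array 2). Those lower were Cish (-0.55) and Socs2 (-0.51), which STAT5 induces, and the receptor chains Il6st (-0.54) and Lifr (-0.34, limma adjusted p = 0.0024, and 0.0523 without CC array 1). Il6st read 10.76 and 10.63 in CC and 10.13, 10.30, 10.11 and 10.09 in DC. The log2 fold change of Socs2 ran from -1.39 to -0.37 across the alternative settings.

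Of 30 measured genes of the Notch pathway and the Hes/Hey family, to which Hes3 belongs, 4 were called higher and 2 lower (median 0.07), close to the shares over all genes. Hey1 read 9.28 and 9.51 in CC and 8.79, 8.61, 8.79 and 8.51 in DC and fell (-0.72 ± 0.114, limma adjusted p = 0.000338). Hes1 read 8.01 and 7.96 in CC and 8.02, 7.70, 7.79 and 7.95 in DC, with overlapping arrays (-0.12 ± 0.0823, limma adjusted p = 0.304). Dll1, a Notch ligand (0.35), Notch1 (0.32) and Hes5 (0.39) were called higher, with limma adjusted p values of 0.00826, 0.012 and 0.0283 that became 0.0694, 0.0947 and 0.342 without CC array 1. Without that array the list had 0 members higher and 1 lower, and without CC array 2 it had 1 and 1.

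Many genes of protein folding in the ER were called lower in DC. Of 24 measured members of the ER stress list 14 fell and 1 rose (median -0.23), the latter being Ddit3, which encodes CHOP (0.29, limma adjusted p = 0.02, and 0.223 without CC array 2). The largest decreases were in cochaperones of BiP, the main ER chaperone. Dnajb9 read 11.32 and 11.37 in CC and 9.45, 9.96, 9.99 and 10.34 in DC (-1.41 ± 0.177, 2.65-fold lower; limma adjusted p = 5.21e-05). Dnajc3 read 11.25 and 10.98 in CC and 9.87, 10.18, 10.22 and 10.41 in DC (-0.95 ± 0.114, limma adjusted p = 3.68e-05). In both genes array 1 was the lowest and array 7 the highest of the DC arrays, and none reached CC. Also lower were Dnajb11 (-0.93), Xbp1, the transcription factor of the unfolded protein response (-0.57), Sdf2l1 (-0.54) and Edem1, which sends misfolded glycoproteins to degradation (-0.52).

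The abundant folding factors moved less. Hspa5, which encodes BiP, read 13.36 and 13.22 in CC and 13.03, 13.04, 13.14 and 13.33 in DC and did not pass (-0.16 ± 0.0854, limma adjusted p = 0.199). Its array 7 lay within the CC range. The disulfide isomerase gene Pdia6 did not pass either (-0.16, limma adjusted p = 0.257). Hsp90b1 (-0.34), Calr (-0.25), Canx (-0.20) and Creld2 (-0.43) were called lower, but each lost the call without CC array 1 (limma adjusted p 0.0609, 0.11, 0.208 and 0.268). The list had 8 members lower without DC arrays 1 and 5, 6 without CC array 1, 7 without CC array 2 and 22 with arrays centred on their median. In the scrambled arrays 13 of the 24 were lower and 0 higher, with a median of -0.33.

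The ER stress element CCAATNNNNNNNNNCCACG was searched on both strands of the same upstream windows. It begins with the CCAAT box, which 19 of the 21 ER promoters held. The element itself occurred in 8 of these 21 promoters, 5 of them of called genes, and in 37 of all 32851 promoters (0.113%). The 3 windows below were chosen to set a gene that fell strongly (Dnajc3) beside one that fell by less (Calr) and one that did not pass (Hspa5), with the element in capitals. In Calr it is on the opposite strand, so its capitals read as the reverse complement. The stretches are RefSeq GRCm38.p6, chr14:118937797-118937875 (plus strand), chr8:84847045-84847123 (minus strand) and chr2:34771995-34772073 (plus strand).

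Dnajc3: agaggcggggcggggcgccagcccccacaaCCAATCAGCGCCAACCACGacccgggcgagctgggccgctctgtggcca

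Calr: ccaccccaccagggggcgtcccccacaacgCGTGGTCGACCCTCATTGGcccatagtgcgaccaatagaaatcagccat

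Hspa5: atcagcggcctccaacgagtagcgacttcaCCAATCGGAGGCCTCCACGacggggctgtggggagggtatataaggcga

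The same element thus stood upstream of genes with differences of -0.95, -0.25 and -0.16.

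ATF4 targets, which serve amino acid supply and are raised when translation initiation is curbed, were called lower in part. Of 23 measured members 13 were lower and 0 higher (median -0.33), and 22 had a negative value. Slc7a11, the cystine importer, read 9.08 and 9.11 in CC and 7.47, 7.69, 7.76 and 7.91 in DC (-1.39 ± 0.0955, 2.62-fold lower; limma adjusted p = 2.57e-07). Psat1, of serine synthesis, read 11.09 and 11.10 in CC and 10.24, 10.18, 10.16 and 10.28 in DC (-0.88 ± 0.0858, limma adjusted p = 6.2e-06). The DC arrays of Psat1 lay within a narrow band. Shmt2, of mitochondrial folate metabolism (-0.83), Nupr1 (-0.72), the glutathione-degrading enzyme Chac1 (-0.71) and asparagine synthetase, Asns (-0.48), fell too. Atf4 itself read 9.62 and 9.82 in CC and 9.71, 9.63, 9.44 and 9.53 in DC, with overlapping arrays (-0.14, limma adjusted p = 0.234). The list had 10 members lower without CC array 1 and 10 without CC array 2, and 10 of 23 were lower in the scrambled arrays.

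The ATF4 core TGATGNAA occurred on either strand in 6 of 19 promoters of this list, 4 of them of called genes, and in 3.45% of all promoters. The windows of Slc7a11 and Asns are shown because both genes fell, with matches in capitals; Slc7a11 has a match on each strand. They are RefSeq GRCm38.p6, minus strand, chr3:50443623-50443709 and chr6:7693210-7693262.

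Slc7a11: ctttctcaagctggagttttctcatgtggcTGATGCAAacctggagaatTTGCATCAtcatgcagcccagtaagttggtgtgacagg

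Asns: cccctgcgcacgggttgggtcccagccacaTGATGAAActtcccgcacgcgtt

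Targets of p53 and of NRF2, the regulator of antioxidant genes, were called lower in part. Of 16 measured members of a list of the p53 gene and its targets 8 fell and 1 rose (median -0.25). Mdm2, the ubiquitin ligase of p53, read 10.07 and 9.95 in CC and 9.06, 9.03, 9.13 and 9.61 in DC (-0.80 ± 0.122, limma adjusted p = 0.00025), with array 7 apart from the other 3. Plk2 (-0.98), Ccng1 (-0.76), Trp53inp1 (-0.71) and Zmat3 (-0.51) fell too, and Sesn1 was the member called higher (0.23, limma adjusted p = 0.0289, and 0.153 without CC array 1). Of 18 NRF2 targets and antioxidant enzymes 9 fell and 0 rose (median -0.24), Slc7a11 among them. Hmox1, heme oxygenase 1, read 9.51 and 9.86 in CC and 9.18, 9.06, 9.19 and 9.20 in DC (-0.52 ± 0.118, limma adjusted p = 0.0045, and 0.129 without CC array 2). Peroxiredoxin 1, Prdx1 (-0.55), glutathione peroxidase 1, Gpx1 (-0.51), and Gclm, of glutathione synthesis (-0.45), were also called, and had limma adjusted p values of 0.0977, 0.206 and 0.19 without CC array 2. The NRF2 list had 1 member lower without that array and 5 without CC array 1. In the scrambled arrays 2 of the 18 were lower, and none of the differences between labels was called.

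**Figure D4:**
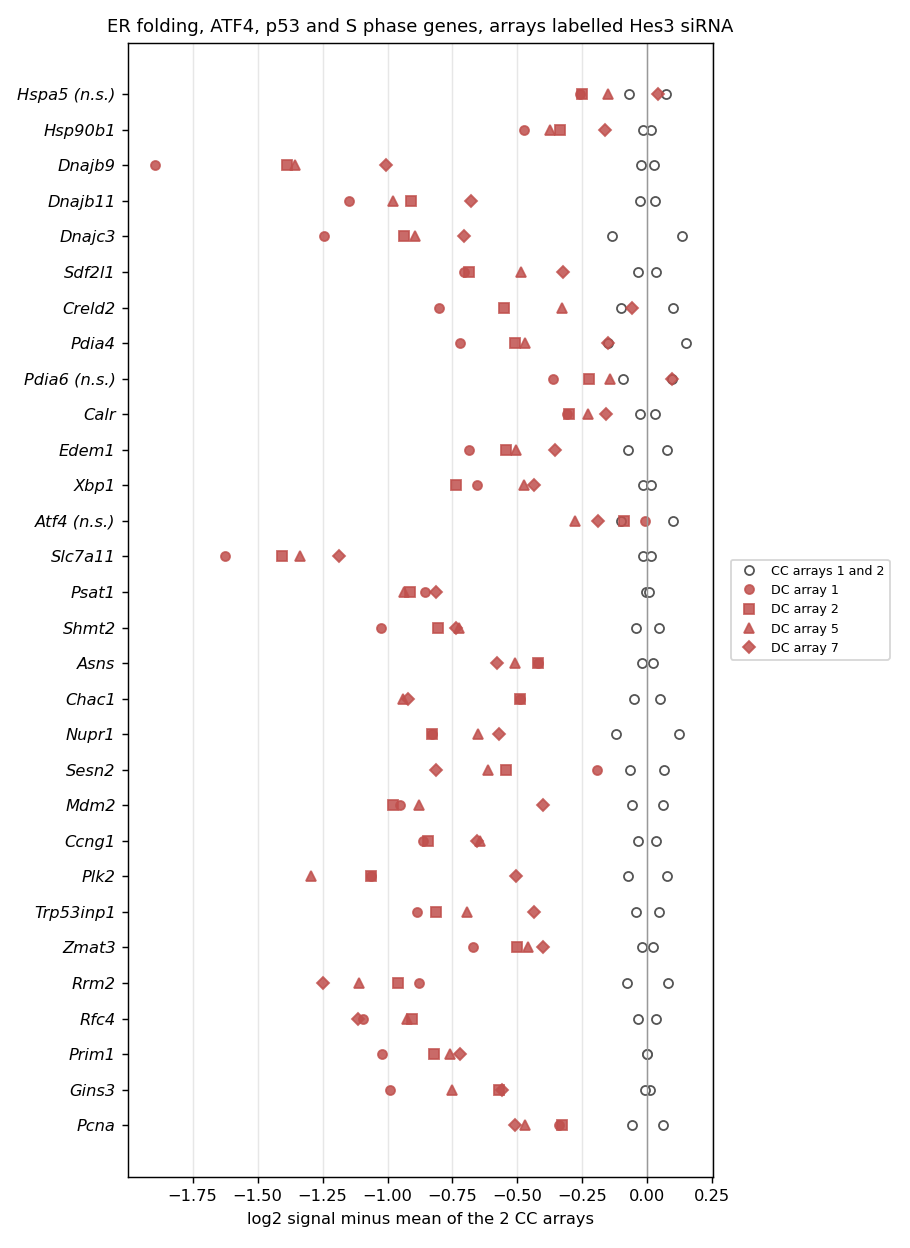
Each symbol is 1 array labelled Hes3 siRNA at its log2 signal minus the mean of the 2 CC arrays, for genes of ER folding, ATF4 and p53 targets and S phase; open circles are CC, filled symbols DC, and n.s. marks genes not past a limma adjusted p of 0.05. Dnajb9 and Slc7a11 lie farthest to the left (-1.41 and -1.39 on average), and array 7 is the DC array nearest to CC for most ER genes.

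DNA replication genes were called lower in part. Of 30 S phase genes 13 were lower and 0 higher (median -0.22), and the other 17 did not pass. Rrm2, the small subunit of ribonucleotide reductase, read 10.42 and 10.58 in CC and 9.62, 9.54, 9.39 and 9.25 in DC (-1.05 ± 0.115, 2.07-fold lower; limma adjusted p = 1.64e-05). Rfc4, a clamp loader subunit, read 10.65 and 10.72 in CC and 9.59, 9.78, 9.76 and 9.57 in DC (-1.01 ± 0.147, limma adjusted p = 0.000183). Prim1, a primase subunit (-0.83), Gins3, of the replicative helicase (-0.72), cyclin E2, Ccne2 (-0.64), and the clamp Pcna (-0.41, limma adjusted p = 0.00394, and 0.0792 without CC array 2) fell too. The count was 9 without CC array 1 and 7 without CC array 2. It was 20 in the deposited values and 26 with arrays centred on their median, all in the same direction.

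Mitotic genes showed no shared direction. Of 27 G2/M genes 2 were higher and 5 lower, and the median was -0.01. Bub1, of the spindle checkpoint, read 10.22 and 10.21 in CC and 9.65, 9.96, 9.94 and 9.67 in DC (-0.41 ± 0.095, limma adjusted p = 0.00549). Cyclin A2, Ccna2 (-0.41), and Hmmr (-0.54) fell, while Cdc20 (0.23) and Kif2c (0.23) were called higher. Each of these calls was lost without CC array 1 or without CC array 2: without CC array 2 the list had 1 member higher and 0 lower, without CC array 1 it had 0 and 3, and without DC arrays 1 and 5 together 0 and 3. In the scrambled arrays 10 members were higher and 0 lower, with a median of 0.29. The difference between labels had an unadjusted p under 0.05 for 15 of the 27, but none passed adjustment. The deposited values gave 0 higher and 11 lower, and arrays centred on their median 0 and 13.

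Beta cell identity genes were called higher in part. Of 22 measured members 7 were higher and 1 lower, with a median of 0.13, which turned to -0.04, with 2 higher and 4 lower, when arrays were centred on their median. Slc30a8, the zinc carrier of insulin granules, read 11.35 and 11.18 in CC and 12.04, 11.94, 11.85 and 11.85 in DC (0.66 ± 0.0872, limma adjusted p = 8.39e-05). The islet factor Isl1 read 10.69 and 10.64 in CC and 11.42, 11.33, 11.01 and 11.31 in DC (0.61 ± 0.0953, limma adjusted p = 0.000333). Both were higher in every DC array. Myt1 (0.47), Nkx2-2 (0.41), Pax6 (0.40) and Abcc8, the sulfonylurea receptor (0.37), were called too, of which Nkx2-2 and Abcc8 had a limma adjusted p of 0.0938 and 0.129 without CC array 2. Without that array the list had 4 members higher.

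Other genes that define the beta cell did not pass. Pdx1 read 11.51 and 11.54 in CC and 11.41, 11.49, 11.53 and 11.80 in DC (0.03 ± 0.0927, limma adjusted p = 0.845), with a sign that turned under several scalings. Mafa read 10.34 and 10.48 in CC and 10.76, 10.66, 10.53 and 10.56 in DC (0.22 ± 0.0928, limma adjusted p = 0.0986), and was -0.07 with arrays centred on their median. Neurod1 was -0.23 (limma adjusted p = 0.0566), Nkx6-1 0.26 (0.0701) and the glucose carrier Slc2a2 0.05 (0.654). Iapp, islet amyloid polypeptide, read 13.84 and 13.80 in CC and 13.55, 13.60, 13.58 and 13.75 in DC and was the member called lower (-0.20 ± 0.0695, limma adjusted p = 0.0448, and 0.231 and 0.154 without CC array 1 and 2).

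Among 27 genes of the insulin granule and exocytosis 6 rose and 5 fell. Sytl4, granuphilin, which docks granules, read 8.82 and 8.88 in CC and 9.95, 9.85, 9.65 and 9.33 in DC (0.85 ± 0.121, limma adjusted p = 0.000152), and Syt4, a synaptotagmin, read 11.46 and 11.31 in CC and 10.94, 10.86, 10.64 and 10.96 in DC (-0.54 ± 0.0884, limma adjusted p = 0.000486). Arrays centred on their median gave 1 higher and 11 lower, and the counts were 4 and 3 without CC array 1 and 3 and 2 without CC array 2. Of 7 alpha cell markers 3 were lower and 1 higher, and the mean log2 signal of the list was 9.70 to 9.75 in DC and 9.91 to 9.98 in CC (exact permutation p = 0.0667, the smallest possible). Gcg, the glucagon gene, read 12.59 and 12.51 in CC and 11.78, 11.85, 11.38 and 11.67 in DC (-0.88 ± 0.103, limma adjusted p = 2.73e-05). Ttr, transthyretin, which alpha and beta cells share, read 13.05 and 13.02 in CC and 12.24, 12.12, 12.67 and 12.73 in DC (-0.59 ± 0.135, limma adjusted p = 0.00492, and 0.0503 without CC array 1). Without CC array 1 the list had 0 members higher and 1 lower. Of 8 markers of delta, PP and epsilon cells 2 were called higher, and 0 without either CC array.

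Some of the largest decreases lay outside the lists. Tacr3, the neurokinin B receptor, read 10.20 and 10.08 in CC and 7.65, 7.99, 7.41 and 7.92 in DC (-2.40 ± 0.137, 5.28-fold lower; limma adjusted p = 1.25e-07). Ly96, the TLR4 coreceptor MD-2, read 9.97 and 9.92 in CC and 7.16, 7.89, 7.36 and 8.39 in DC (-2.24 ± 0.260, limma adjusted p = 2.6e-05). In both the highest DC array lay more than 1 log2 unit below CC. Other large decreases were those of Calb1, the calcium buffer calbindin (-2.02), Tcim (-1.87), the casein gene Csn3 (-1.74), Fgl2 (-1.72), Ccdc80 (-1.69) and Cckbr, the gastrin receptor (-1.63). Plpp1, a lipid phosphatase (-1.63), Man1a, a Golgi mannosidase (-1.62), and Slc35g2 (-1.56) fell as well.

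Among increases outside the lists, Nnat, neuronatin, an imprinted gene expressed in beta cells, read 10.88 and 10.97 in CC and 12.41, 12.26, 11.80 and 11.22 in DC (0.99 ± 0.213, limma adjusted p = 0.00337). Its DC arrays ran over more than 1 log2 unit, with array 7 the nearest to CC. Fras1, of the basement membrane, read 8.69 and 8.55 in CC and 9.88, 9.89, 9.71 and 9.51 in DC (1.12 ± 0.1, limma adjusted p = 2.92e-06). Tnr, tenascin-R, rose by 0.93 and Phactr1, a regulator of protein phosphatase 1, by 0.96.

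The culture difference was then set beside that of the scrambled arrays, which share no array with it. With the scrambled label 1742 genes were called (8.74%), 684 higher (3.43%) and 1058 lower (5.31%). Of the 5025 genes called with the Hes3 label, 4450 (88.6%) had the same sign with the scrambled label, against 66.5% of all genes. Genes called with both labels numbered 1319, which was 26.2% of the first set and 75.7% of the second, and 2 of them had opposite signs. Across genes, which are not independent replicates, the log2 fold changes had a Pearson correlation of 0.678. Unequal counts do not show unequal effects, which need a test of the difference itself.

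That test, the culture difference with the Hes3 label minus that with the scrambled label, called 0 of 19938 genes in limma (0%), with 2796 at an unadjusted p under 0.05 and a smallest adjusted p of 0.165. It called 949 genes, 189 higher and 760 lower, when CC scrambled array 2 was left out, and 0 in each of the other 20 alternatives. The genes with the smallest p are given as values. Smpdl3a differed by -1.11 with the Hes3 label and by -0.30 with the scrambled label. Btd, biotinidase, read 9.24 and 9.20 in CC and 8.25, 8.46, 8.29 and 8.40 in DC (-0.87) with the Hes3 label, and 8.91 and 9.20 in CC and 9.07, 8.91, 8.95 and 9.25 in DC (-0.01) with the scrambled label. The cultures lay apart in the first set and overlapped in the second. Selenop, a selenium carrier, differed by -0.99 and -0.26, Ugcg, glucosylceramide synthase, by -1.14 and -0.28, and the exonuclease gene Eri2 by -0.34 and 0.28. All 5 had a limma adjusted p of 0.165 for the difference between labels.

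**Figure D5:**
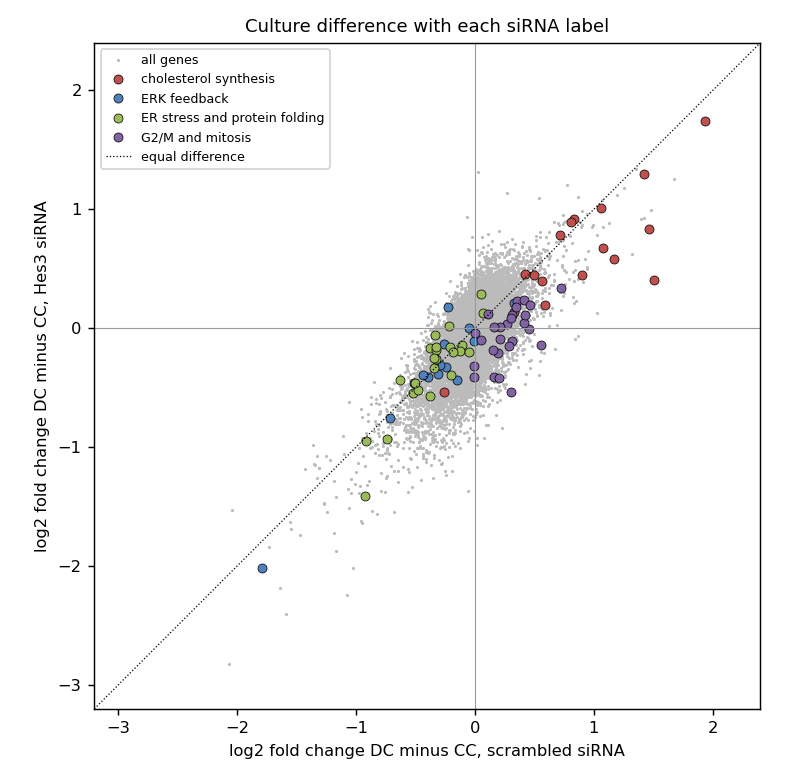
Each point is 1 gene at its log2 fold change, DC minus CC, in the scrambled arrays (x axis) and in the arrays labelled Hes3 siRNA (y axis), with 4 gene lists in colour and a dotted line of equal difference; the Pearson correlation across genes is 0.678. Of the 17 cholesterol synthesis genes 16 lie at the upper right and Ebp (-0.54 with the Hes3 label) at the lower left, with Dusp6 of the ERK feedback list farther down on the same side and most G2/M genes to the right of 0 on the x axis.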

How the data were processed

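RNA of MIN6 cells (250 ng per array) was labelled for whole-transcript GeneChip arrays, per the labels' protocols. The authors deposited 1 value per probe set and array for 35556 probe sets, read here as log2 from their range (3.94 to 14.4). Summarization and normalization by the authors are not given in the sources used here. The values were quantile normalized, and the 21789 probe sets with exactly 1 gene symbol in the platform annotation were kept (1621 had several, 12146 none). The probe set with the highest mean stood for each of 19938 genes, of which 19856 matched the RefSeq gene table by Entrez identifier, with 0 symbols differing. Some genes are not reported here.

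Groups came from the titles. limma 3.58.1 in R 4.3.3 fitted 1 mean per group over all 12 arrays (lmFit, eBayes, 8 residual and 7.48 prior degrees of freedom). Contrasts were DC minus CC with the Hes3 label, the same with the scrambled label, and their difference, with Benjamini-Hochberg adjustment over all genes and a threshold of 0.05. On simulated data of 19938 genes with 200 changed, the fit recovered 85 of 100 changed by 0.5 and 100 of 100 changed by 1 on the log2 scale, with 7 false calls. The simulated scatter was independent between genes and arrays, without array-wide shifts, and was not normalized again. These counts are therefore no error rate for the real arrays.

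The members and the 36 gene lists (647 of 705 distinct genes measured) were chosen with earlier results of these data known. Named genes were Hes3, Hes1, Ins2, Pdx1 and Mafa, the 15 largest increases and the 15 largest decreases with arrays that did not overlap (predicted, small RNA and chemoreceptor symbols left out), up to 4 called members of each list, or the 2 with the smallest p, and the 5 with the smallest p for the difference between labels. Other list members were chosen after their values were seen. Alternatives were the deposited values, arrays centred on their median, cyclic loess, a filter at the 40th percentile of signal, trend and robust eBayes, only the 6 arrays, averaging a gene's probe sets, limma array weights, a block on replicate number, 1.5-fold as a minimum, and fits without 1 array or without DC arrays 1 and 5.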

Additional observations from a re-analysis of the deposited data

Results flagged for a closer look

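In groups of 4 arrays, a gene was singled out where 1 DC array stood apart from the other 3 by more of the group's range than Dixon's critical value for 4 values. Chance does this in about 1 of 20 groups, and it happened for 7 of the 216 genes tested. Among signalling genes, Dusp6 was 7.99 in array 5 against 8.44 to 8.52 in the others, and Id1 was 7.86 in array 1 against 7.65 to 7.67. Lpin1 was 9.87 in array 5 against 9.71 in the others, and Mdm2 was 9.61 in array 7 against 9.03 to 9.13. Array 2 stood apart for Hmox1, at 9.06 against 9.18 to 9.20, for the iron exporter gene Slc40a1, at 7.23 against 7.35 to 7.37, and for the junction protein gene F11r, at 8.47 against 8.31 to 8.32. In all 7 genes the array that stood apart still lay on the same side of both CC arrays as the other 3. This was largely set by the choice of genes. Lpin1, Dusp6 and Id1 were named because their arrays did not overlap, and the others as called list members.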

How the results depend on the processing

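Of the 197 named genes called in the arrays labelled Hes3 siRNA, 106 kept the call in all 16 alternatives other than the minimum of 1.5-fold, which 85 met. The CC arrays mattered most: 75 calls were lost without CC array 2 and 57 without CC array 1, against 40 without DC arrays 1 and 5 together, 33 with arrays centred on their median, 30 with the replicate block and 20 in the deposited values. The number of genes called ran from 1934 to 6198 when 1 array was left out (higher 552 to 2976, lower 1382 to 3222), and was 7986 in the deposited values (4232 higher) and 882 at 1.5-fold or more (139 higher, 743 lower). The higher count was 1034 and the lower 4949 with arrays centred on their median, and the higher count was 1306 with only the 6 arrays, 1203 with the replicate block and 1079 without DC arrays 1 and 5. The difference between labels ran from 0 to 949 calls when 1 array was left out.

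Signs turned as follows, and the cause was not tested. With arrays centred on their median Hes3 was 0.0043, Ins2 -0.15, Pdx1 -0.29, Mafa -0.066, Lpcat3 -0.038, Cdkn2c -0.083, Cyp51 -0.077, Sc5d -0.13 and Nkx6-1 -0.021. In the deposited values Hes3 was 0.11, Ins2 -0.035, Pdx1 -0.18 and Sc5d -0.016. Pdx1 was -0.078 with the replicate block and ran from -0.051, without DC array 7, to 0.08, without DC array 1. After cyclic loess Hspa5 was 0.021 and Iapp 0.041.

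The titles share replicate numbers 1 and 2 between the cultures, but nothing ties the numbers to a shared batch. The deviations of the same-numbered arrays had a correlation of -0.15 across genes (from -0.38 to 0.40 over all pairs of groups). Such a correlation cannot settle whether the arrays were paired, so pairing is not known. With the replicate block 3375 genes were called, 3090 of them among the 5025. Differences in both bright and dim genes depended on the scaling. The median log2 fold change of the brightest of 4 equal parts of genes was -0.04 after quantile normalization and -0.19 in the deposited values. That of the dimmest part was 0.04 and 0.15, that of the next dimmest 0.06 and 0.19, and that of the remaining part -0.02 and -0.02.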

Other observations

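Genes of the respiratory chain and of lysosomes were called lower in part in the DC arrays labelled Hes3 siRNA, while iron handling stood nearer the shares over all genes. Of 28 genes of oxidative phosphorylation 8 fell and 1 rose, with a median log2 fold change of -0.14 against 0.03 over all genes. Cycs, cytochrome c, read 11.57 and 11.72 in CC and 11.08, 11.17, 10.99 and 11.04 in DC (-0.57 ± 0.111, limma adjusted p = 0.00162), and Cyc1, cytochrome c1, fell by 0.43. The count of lower members was 4 without CC array 1, 2 without CC array 2 and 5 without DC array 5, but 18 in the deposited values and 21 with arrays centred on their median, with 0 higher in both, and 0 of the 28 were called in the scrambled arrays. Of 21 lysosome and autophagy genes 7 fell and 1 rose (median -0.11). The cysteine protease gene Ctsl read 12.71 and 12.52 in CC and 12.08, 12.06, 11.85 and 12.34 in DC (-0.53 ± 0.104, limma adjusted p = 0.00167), and Wipi1, of autophagosome formation, fell by 0.55. Without CC array 1 or 2 there were 4 lower, in the deposited values 12 and with arrays centred on their median 16, where the median of the list was -0.37. Of 14 iron handling genes 3 fell (21.4%) and 1 rose (7.14%), against 14.9% and 10.3% of all genes, and the median was -0.07. Both in the deposited values and with arrays centred on their median 6 were lower and 0 higher. Slc40a1, ferroportin, the iron exporter, read 8.68 and 8.61 in CC and 7.37, 7.23, 7.35 and 7.35 in DC (-1.32 ± 0.0849, 2.49-fold lower; limma adjusted p = 2.02e-07), and Hfe, a regulator of iron uptake, fell by 0.61.

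Of 22 genes of cell adhesion and tight junctions 7 fell and 2 rose, with a median of 0.07. The junction protein gene F11r fell by 0.65 and the laminin receptor subunit Itga6 by 0.60, where Itga6 read 7.97 and 7.65 in CC and 7.18, 7.10, 7.15 and 7.41 in DC (limma adjusted p = 0.00118). The lower count was 3 without CC array 1, 4 without CC array 2 and 4 without DC array 5. Of 14 neural progenitor markers 4 were higher and 2 lower, and the higher count was 1 without CC array 1, 2 without CC array 2 and 1 without DC array 5. Fabp7, a brain fatty acid binding protein, read 8.55 and 8.69 in CC and 7.73, 7.99, 7.83 and 7.91 in DC (-0.76 ± 0.103, limma adjusted p = 9.98e-05). In the 19 interferon genes Stat2 rose by 0.60, with 8.74 and 8.92 in CC and 9.49, 9.50, 9.33 and 9.41 in DC (limma adjusted p = 5.01e-05), while Usp18 (-0.51) and Ifit2 (-0.40) fell, the latter with a limma adjusted p of 0.0254, and 0.136 and 0.132 without CC array 1 and 2. Of 16 NF-kappaB genes 0 passed in limma, with 3 at an unadjusted p under 0.05, and the smallest p belonged to Nfkb2 (0.18, limma adjusted p = 0.0625) and Icam1 (0.22, 0.0762). Of 24 cytosolic ribosomal protein genes 2 rose and 4 fell, and the 4 were 1 without CC array 1 and 0 without CC array 2, but 9 in the deposited values and 13 with arrays centred on their median, with 0 higher in both. Bhlha15, an acinar transcription factor also induced by the unfolded protein response, read 9.06 and 9.27 in CC and 8.29, 8.44, 8.69 and 8.67 in DC (-0.64 ± 0.110, limma adjusted p = 0.000632) and was the 1 acinar marker of 11 called. Cd68, a lysosomal protein used as a macrophage marker, was the 1 of 13 macrophage and endothelial markers called (-0.58, limma adjusted p = 0.000333).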
